A study of Drosophila melanogaster with 2 samples.

Results

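The Drosophila Hox genes lie on chromosome arm 3R in a pair of gene complexes, and 19 of the 3842 GAGA factor peaks deposited for Kc cells fell within them. The members were the peaks whose midpoint lay on 3R from 2480000 to 2830000 (the Antennapedia complex, lab to Antp) or from 12480000 to 12815000 (the bithorax complex, Ubx to Abd-B). These are positions in the BDGP5 assembly, as are all positions below, counted from 1. The Antennapedia complex held 7 peaks and the bithorax complex 12, out of 861 on the whole of 3R. The names of the complexes come from these intervals, since the peak list names no gene.

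Peaks were obtained by chromatin immunoprecipitation and sequencing (ChIP-seq) with an antibody called KW3-Trl-D2 from untreated Kc cells, an established Drosophila line of embryonic origin. Trl encodes the GAGA factor. The other sample was input chromatin of Kc cells, set aside before antibody was added and not analysed here. There was 1 peak list and no replicate list, so no value below has an error between cultures, and no difference was tested. The series design speaks of replicates, and whether this list comes from a single replicate or a pool is not given. The number of reads is unknown, so a stretch without a peak is a stretch in which none was called. The labels describe fly collection as the growth protocol and give no culture conditions for the cells.

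Hox genes encode homeodomain transcription factors that set the identity of body segments, and in each complex they lie in an order close to that of the segments they shape. Polycomb group proteins keep them silent, and Trithorax group proteins keep them active, through DNA elements spread over the complexes. The GAGA factor binds GA-rich DNA, is counted with the Trithorax group, and is known to bind the Ubx promoter and several Polycomb response elements and boundary elements of the bithorax complex. In the RefSeq table of the Release 6 assembly, which served for names and order only, all 9 Hox symbols were found. It places 20 protein-coding genes from lab through Antp. Among them are lab, pb and Dfd, which pattern the head, Scr, which acts in the labial and anterior thoracic segments, ftz, a segmentation gene of the Hox family, and Antp, which acts in the thorax. The others include a row of Ccp84A cuticle protein genes between lab and pb, and the homeobox genes zen, zen2 and bcd of the early embryo between pb and Dfd. From Ubx through Abd-B it places 6 protein-coding genes, of which Ubx acts in the posterior thorax, abd-A in the middle abdomen and Abd-B in the posterior abdomen. It lists 8 long noncoding RNAs in that stretch, bxd and the iab transcripts among them. No peak was assigned to any of these genes, because gene positions in BDGP5 were not used here.

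The 7 peaks of the Antennapedia complex lay in the middle of its interval and toward Antp. No peak lay in the 116.7 kb that make up the lab end of the interval when it is cut into 3 equal parts. The middle part held 3 peaks and the Antp end 4. The strongest of the 7 was the first met from the lab end, from 2617145 to 2617831, 687 bp wide with a score of 1698.73. The score is the value that the peak caller gave each peak, deposited without a stated scale. A higher score was read as a stronger call. Of the 861 peaks on 3R, 165 scored higher than this one.

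The next was a pair of peaks 843 bp apart. The first, from 2674183 to 2674842, had a score of 404.57 and was 660 bp wide. The second, from 2675686 to 2676084, had a score of 205.1 and was 399 bp wide. On 3R, 437 peaks scored above the first of the pair and 551 above the second, so both lay in the middle of the range.

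The weakest peaks of the complex followed toward Antp. A second pair, from 2718785 to 2719152 and from 2719155 to 2719398, had scores of 54.5 and 57.31, and only 2 bases separated its members. A single peak from 2756186 to 2756450 had a score of 60.06 and a width of 265 bp. These 3 scores were close to the lowest of the list, 50.11. On 3R, 832 and 813 peaks scored above the members of the pair and 799 above the single peak. The last peak, from 2826227 to 2826926, was strong again, with a score of 806.97 and a width of 700 bp. It lay 3.42 kb inside the Antp end of the interval. The first peak beyond that end, from 2862821 to 2863559, lay 33.2 kb outside it and had a score of 1131.39.

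The bithorax complex carried more peaks, and each of its 3 equal parts held some. The part at the Ubx end, 111.7 kb long, held 4 peaks, the middle part 3, and the part at the Abd-B end 5. At the Ubx edge lay a weak pair with 324 bases between its members. These peaks, from 12480846 to 12481160 and from 12481485 to 12481811, had scores of 104.49 and 92.16. The last peak before this edge lay 152 kb outside it, from 12328329 to 12328660, with a score of 350.83.

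The strongest peak of the bithorax complex lay 48.7 kb from the Ubx end of the interval, from 12528339 to 12529049. It had a score of 1661.52 and a width of 711 bp, and 173 peaks on 3R scored higher. The peak after it, from 12589371 to 12590180, was wide for its score, with 810 bp and a score of 208.17. The 50 peaks of 3R nearest to it in score had a median width of 445 bp.

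The middle part of the bithorax complex held only weak peaks. Their scores were 133.98 from 12655747 to 12656169, 53.85 from 12683369 to 12683642 and 164.23 from 12702478 to 12702852. The score of 53.85 was the lowest of all 19 members.

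Toward Abd-B the peaks were stronger and closer together. The 5 peaks of that end lay within 36.3 kb, from 12724526 to 12760874, and had a median score of 805.86. The first, from 12724526 to 12725115, had a score of 1001.49, with a weaker neighbour of 208.47 starting 331 bases after it, from 12725447 to 12725762. A single peak from 12744721 to 12745139 had a score of 1216.57 and was narrow for it, at 419 bp, where the 50 peaks nearest in score had a median of 645 bp. The last pair comprised a peak of 283 bp from 12759082 to 12759364, with a score of 396.94, and one of 1057 bp from 12759818 to 12760874, with a score of 805.86. The peak of 1057 bp was the widest of the 19 members. No peak was called in the remaining 54.1 kb of the interval, and the first peak beyond the Abd-B end lay 13.5 kb outside it, from 12828291 to 12828795, with a score of 217.18.

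**Figure D1:**
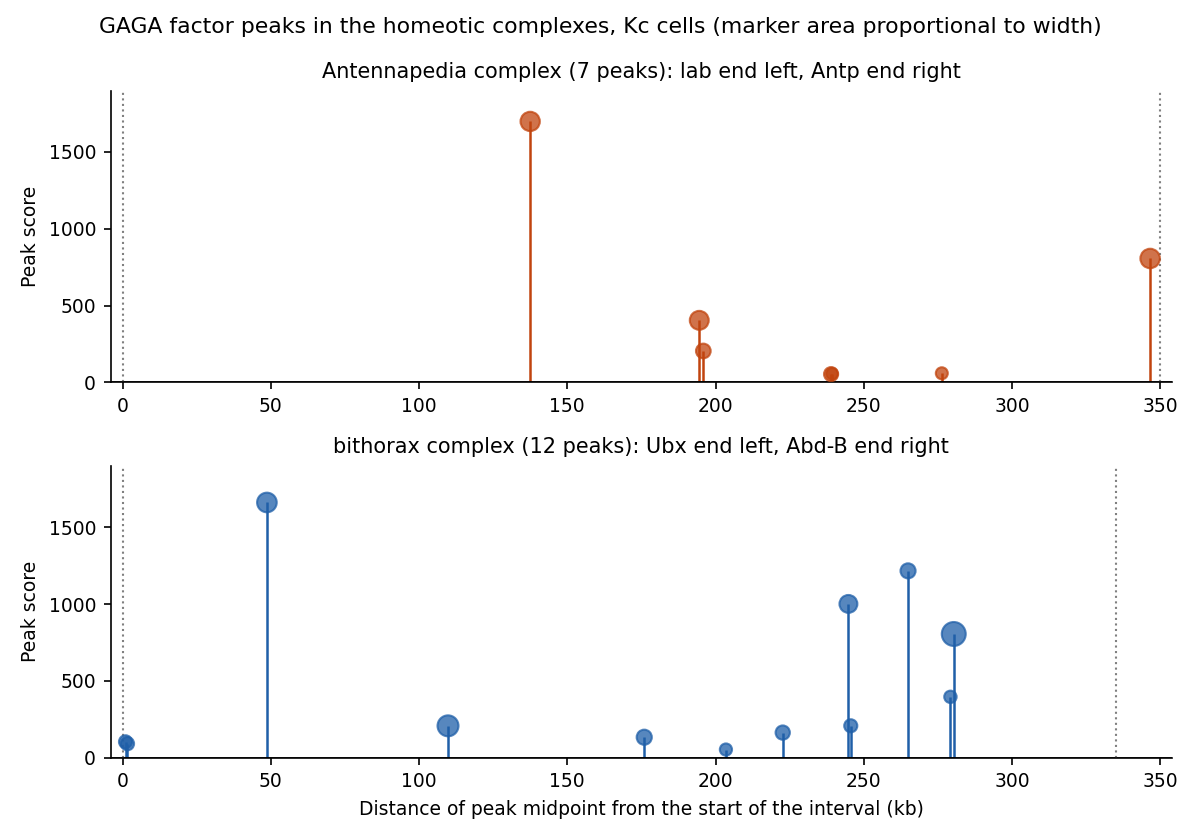
Each line is one peak, placed by the distance of its midpoint from the start of the interval (kb, x axis). Its height gives the deposited score (y axis) and the marker area its width. The dotted lines mark the ends of the intervals. In the Antennapedia complex the first peak stands 137 kb from the lab end, and in the bithorax complex 5 peaks stand between 245 and 280 kb, toward Abd-B.

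As deposited, the peaks of each complex had a lower median score and a lower median width than those of the rest of 3R. The 19 members had a median score of 208.17 (quartiles 98.3 and 806), against 445.87 (quartiles 130 and 1341) for the 842 peaks of the rest of 3R. The median was 205.1 in the Antennapedia complex and 208.32 in the bithorax complex. Scores in both complexes spanned a similar range, 54.5 to 1698.73 in the Antennapedia complex and 53.85 to 1661.52 in the bithorax complex.

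At the upper end, 4 of the 19 members scored 1000 or more, 1 in the Antennapedia complex and 3 in the bithorax complex. Among the other peaks of 3R, 260 did so (30.9%). The score of 3100, at which 60 peaks of 3R are tied, was reached or passed by 68 of the other peaks of 3R (8.08%) and by no member. With only 19 members, neither of these counts lies far from the share in the other peaks. Neither was read as a trait of the complexes. In the whole list 267 peaks share this score, so scores near the top may not rank peaks. The low end of the range was also represented. Of the 19 members, 5 scored under 100, against 165 of the other peaks (19.6%). They comprised 3 of the 7 in the Antennapedia complex and 2 of the 12 in the bithorax complex. Without such peaks the median score was 606 over the 4 left in the Antennapedia complex and 303 over the 10 left in the bithorax complex, against 672 in the rest of 3R.

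Taken as deposited, members were narrower than other peaks of 3R. Their median width was 399 bp (quartiles 315.5 and 673.5), against 525 bp (quartiles 406 and 752.5) for the rest of 3R. The medians were 399 bp in the Antennapedia complex and 397 bp in the bithorax complex. Widths under 300 bp were found for 4 of the 19 members and for 74 of the other peaks (8.79%). Width of 1 kb or more was found for 1 member and for 105 of the other peaks (12.5%). The difference in width turned round when peaks closer than 500 bp were merged, with a median of 660 bp for the 15 merged members and 631 bp for the 679 merged peaks of the rest of 3R. The difference in score did not, with medians of 208.17 for the merged members and 548 for the others.

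Width and score went together on 3R, with a Spearman rho of 0.74 over the 842 other peaks and 0.72 over the 19 members (Pearson r of 0.69 and 0.57). Both measures come from the same reads and the same peak calls, and the rho is a description across peaks. Set beside the 50 peaks of 3R nearest to it in score, a member was narrower than their median width in 13 of 19 cases. Over the other peaks of 3R, measured the same way, this was so for 413 of 842 (49%). Within the complexes the counts were 4 of 7 in the Antennapedia complex and 9 of 12 in the bithorax complex.

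**Figure D2:**
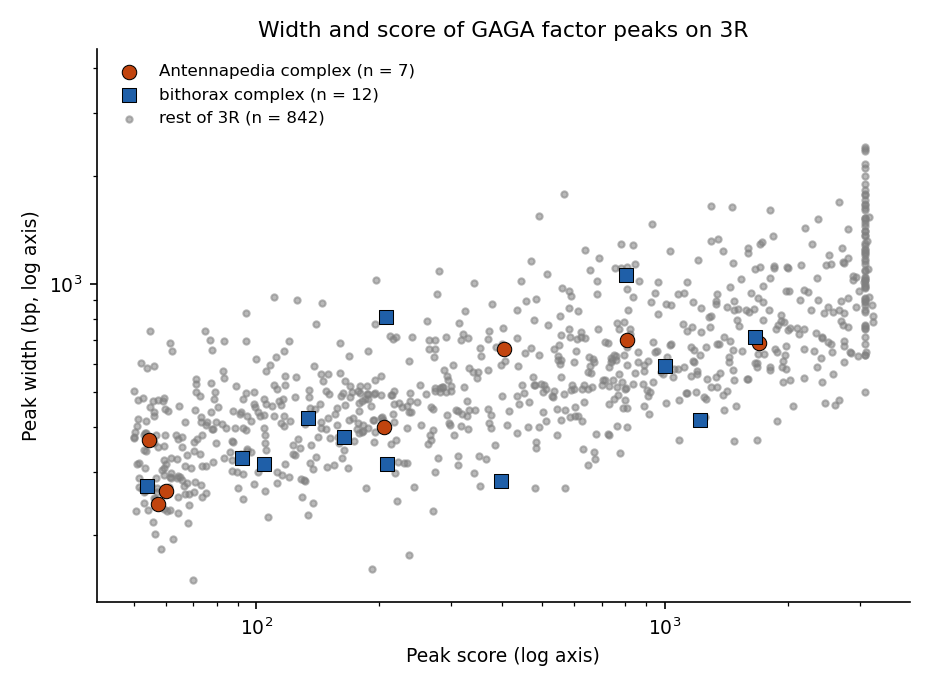
Width in bp (y axis, log) against the deposited score (x axis, log). Shown are the 7 peaks of the Antennapedia complex, the 12 of the bithorax complex and the 842 other peaks of 3R. The members lie within the cloud of the other peaks, at scores from 53.85 to 1698.73, and none stands in the column of peaks tied at 3100.

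Windows of the same size along 3R gave the scale for these numbers. For the Antennapedia complex, 3R was cut into 79 tiles of 350 kb, starting at position 1, and for the bithorax complex into 83 tiles of 335 kb. In each case 2 tiles overlapped the complex itself. A rank among tiles describes this list and is not a test.

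The Antennapedia complex, with 7 peaks, stood below the median tile, which held 10 (quartiles 7 and 13, range 0 to 29). Fewer peaks were found in 16 tiles, the same number in 7 and more in 56, so that 29.1% of tiles held as many as the complex or fewer. Peaks covered 0.949% of the complex, against a median of 1.69% over tiles, and 65 of the 79 tiles were covered more fully. Its median score of 205.1 compared with a median of 388 over the 78 tiles that held a peak, of which 63 lay higher. Its median width of 399 bp was exceeded in 71 of those 78 tiles. That rank holds for peaks as deposited. With peaks closer than 500 bp merged, the median width of the complex was 637 bp, and tiles were not compared in width.

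The bithorax complex, with 12 peaks, stood above the median tile, which held 9 (quartiles 6 and 13.5, range 2 to 28). Fewer peaks were found in 53 tiles, the same number in 6 and more in 24, and 71.1% of tiles held as many as the complex or fewer. Expressed per length, it held 35.8 peaks per Mb and the Antennapedia complex 20. The share of bases covered, 1.76%, was close to the median tile of 1.82%, with 43 of 83 tiles covered more fully. Its peaks were thus more numerous than in most tiles but scored lower, with a median of 208.32 against 446 over tiles, of which 69 lay higher. Among the 50% of all peaks with the highest score, the complex held 5 peaks, and 40 of the 83 tiles held more, 2 the same number and 41 fewer. The highest score in the complex, 1661.52, was below the highest score of 62 of the 83 tiles.

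Cut at the edges of its interval, the longest stretch without a peak was short in the bithorax complex. It was 65.6 kb long, from 12590181 to 12655746. Tiles were cut at their edges in the same way. On this measure the longest stretch was shorter in 5 of the 83 tiles (6.02%) and longer in 78. The median over tiles was 122 kb (quartiles 99.4 and 170). The rank depends on the edges, since the stretch at the Ubx edge was 152 kb long when followed to the next peak outside. A tile with many peaks has less room for a long stretch, so tiles of like number were compared. Of the 14 tiles with 11 to 13 peaks that did not overlap the complex, 12 had a longer stretch and 2 a shorter one, with a median of 106 kb and a range of 51.2 to 172 kb. All 14 had a larger median width than the 397 bp of the complex, and 13 had a higher median score. These widths are those of peaks as deposited. Merging peaks closer than 500 bp raised the median width of the complex to 711 bp, and tiles were not compared in width after merging. When only the 50% of all peaks with the highest score were kept, 5 peaks remained in the complex and its longest stretch was 195 kb, exceeded in 25 of the 83 tiles. With peaks scored 100 or more it stayed at 65.6 kb, exceeded in 79 tiles.

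In the Antennapedia complex the longest stretch within the interval was 137 kb, near the median over tiles of 133 kb, and it was longer in 37 of the 79 tiles and as short or shorter in 53.2%. Of the 14 tiles with 6 to 8 peaks outside the complex, 10 had a longer stretch and 4 a shorter one.

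**Figure D3:**
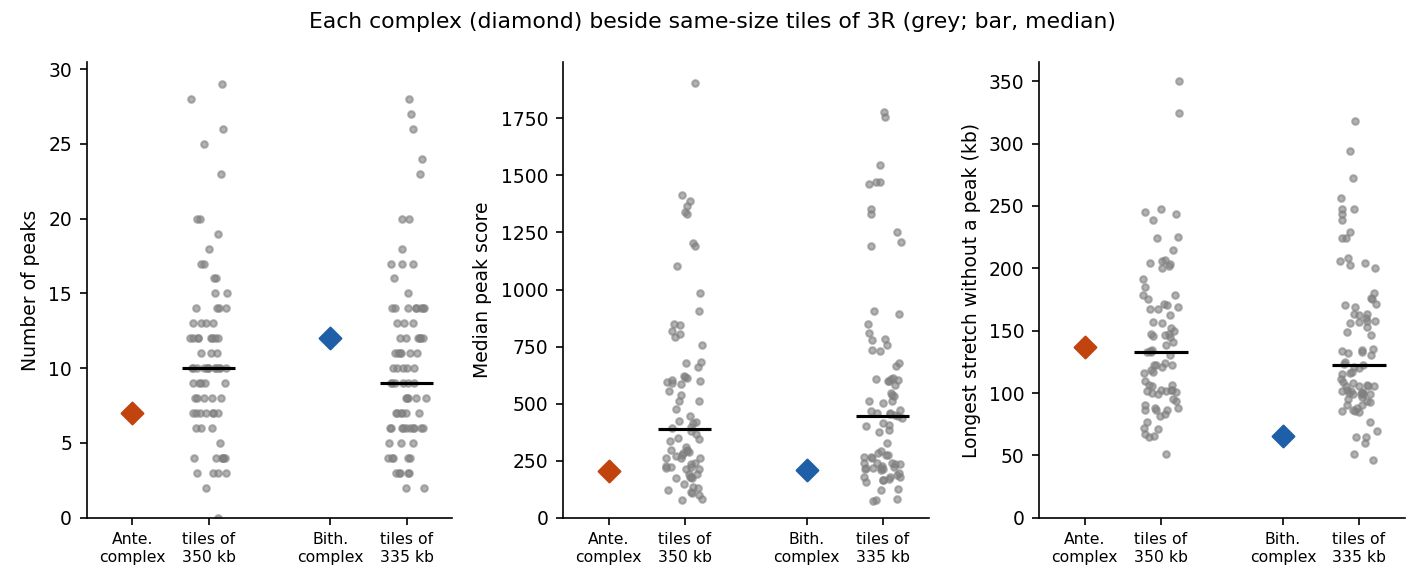
Number of peaks, median score and longest stretch without a peak (kb) on the y axes, for each complex (diamond) beside the tiles of 3R of the same size (grey points; bar, median). The Antennapedia complex lies below the median tile in number (7 against 10) and the bithorax complex above it (12 against 9). Both lie low in median score, and the bithorax complex lies low in longest stretch, at 65.6 kb against 122 kb. Stretches are cut at the edges of complexes and tiles. Followed beyond the Ubx edge, the bithorax complex has a stretch of 152 kb.

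Stretches without a peak ran on beyond the edges of the intervals. The stretch at the lab end of the Antennapedia complex began at 2300566 and ended at 2617144. At 317 kb it was the fourth longest of the 861 stretches on 3R, of which 3 were longer and the longest was 438 kb. The interval of the complex held 137 kb of it. The peak before it, from 2300174 to 2300565, had a score of 269.92 and lay 180 kb outside the interval.

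The next longest stretches of the Antennapedia complex were 69.8 kb, from 2756451 to 2826226, and 56.4 kb, from 2617832 to 2674182. On 3R 124 stretches were longer than the first of these and 160 longer than the second. In the bithorax complex, the stretch of 65.6 kb was followed by one of 60.3 kb, from 12529050 to 12589370, and by one of 54.1 kb that ran from the last peak at 12760875 to the end of the interval at 12815000. Beyond that end the last of these went on to a full length of 67.4 kb, and the stretch before the Ubx edge was 152 kb long.

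Between the outermost peaks of the bithorax complex, the longer stretches lay on the Ubx side. In order from the pair at the Ubx edge, stretches of 46.5, 60.3, 65.6, 27.2, 18.8, 21.7, 19.0 and 13.9 kb separated the single peaks and pairs. Beyond the last pair the stretch toward the Abd-B edge was long again, at 54.1 kb within the interval. With stretches across the edges taken in full, those of 10 kb or more numbered 10 in the bithorax complex, with a median of 36.9 kb, and 6 in the Antennapedia complex, with a median of 49.5 kb. Over 3R, 413 stretches of 10 kb or more had a median of 41.1 kb. Without the stretches across its edges, the median of the bithorax complex was 24.4 kb over 8 stretches.

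**Figure D4:**
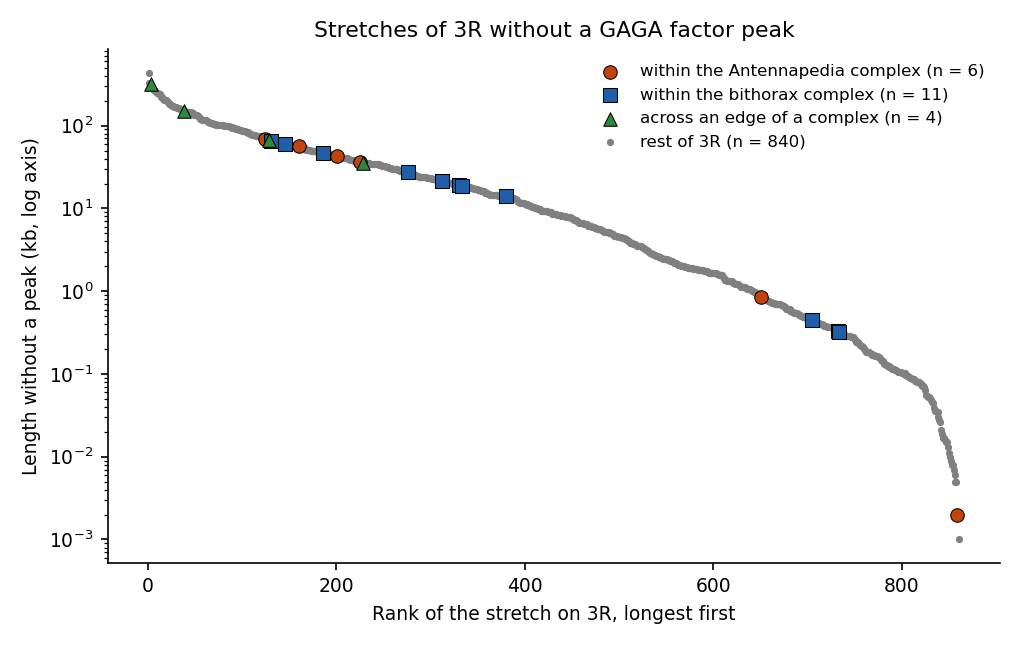
Length in kb (y axis, log) of each of the 861 stretches of 3R without a peak, ranked from the longest (x axis), with those within or across the edge of a complex marked. The stretch of 317 kb across the lab edge of the Antennapedia complex stands at the fourth rank, and no stretch that lies whole within a complex exceeds 69.8 kb.

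Peaks in the complexes were single or paired, and no longer run was found. With neighbours joined at gaps under 2 kb, the 19 members formed 5 runs in the Antennapedia complex, of which 2 were pairs, and 9 in the bithorax complex, of which 3 were pairs. In a pair or longer run lay 10 of the 19 members and 480 of the other peaks of 3R (57%). In runs of 3 or more lay none of the members and 218 of the other peaks (25.9%), and the largest run on 3R held 6 peaks. Counted by runs, the bithorax complex exceeded 61 of the 83 tiles, equalled 4 and was exceeded by 18.

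Each complex was also set beside flanks of its own size. The Antennapedia complex held 7 peaks, against 10 in the 350 kb before it and 13 in the 350 kb after it. Its highest score of 1698.73 compared with 1808.11 before and 2421.86 after. The bithorax complex held 12 peaks, against 3 in the 335 kb before it and 9 in the 335 kb after it. Its highest score of 1661.52 compared with 1712.34 before and 3166.25 after, and its median score of 208.32 with 1005 before and 552 after. Both complexes thus had lower median and highest scores than either flank, the median of the Antennapedia complex being 205.1 against 276 before and 779 after.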

How the data were processed

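ChIP-seq of Kc cells was measured in 1 ChIP and 1 input sample, and the peak list of the ChIP sample was used. Reads were aligned with Bowtie to BDGP5, per the submitters' processing notes, and the file header names MACS as the peak caller. For versions, settings, duplicates and pooling, values were not given in the sources used here. Per the file headers the score of each peak comes from MACS, and the authors deposited it without stating its scale, so it was used unchanged. The highest score of the list, 3233.06, equals minus 10 times the log10 of the smallest number that double precision holds. Whether the score follows that scale was not tested. Depth is unknown, and how it limits weak peaks cannot be given.

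Starts were shifted by 1 to count from 1. Widths, midpoints, stretches, runs and tiles were computed in Python 3.11.15 (pandas 2.3.3, NumPy 2.4.6, SciPy 1.17.1, figures with Matplotlib 3.10.9). The measures of windows, stretches, runs and merged peaks were tested on 50 simulated lists with planted answers, all recovered. The cutting into tiles and the ranks among them were not part of that test. Tiles ended at the last peak of 3R, and the part tile there was left out. Every peak was named, as each complex held at most 15; genes named were the Hox genes, zen, zen2, bcd and their neighbours. The intervals, members and lists were chosen with earlier results of these data known. Alternatives covered scores, merging, edges and tiling.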

Additional observations from a re-analysis of the deposited data

How the results depend on the processing

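Of 47 recomputed values, 34 stayed close to the value reported, within 1.5 times for counts, medians and stretches or within the exact 95% binomial interval for shares of tiles (counting error only), and 13 moved. Tiles of 1 list are not replicates, so this interval served as a yardstick and not as a test. For the share of tiles with more peaks than the Antennapedia complex it ran from 59.6% to 80.6%. A share could thus change by several percent and still count as close. Keeping peaks scored 100 or more left 4 peaks in the Antennapedia complex, with a median score of 606 and a median width of 673.5 bp. Keeping the 50% of all peaks with the highest score left 3 in the Antennapedia complex and 5 in the bithorax complex. With these, 48.2% of tiles held more peaks than the bithorax complex in place of 28.9%, its longest stretch was 195 kb, and 30.1% of tiles had a longer one in place of 94.0%. With peaks scored 100 or more that stretch stayed at 65.6 kb, and 95.2% of tiles had a longer one. With tiles shifted by 0.5 of a window, 98.8% of tiles had a longer stretch. All alternatives for this rank by longest stretch, those by score included, were chosen after seeing the data. Followed beyond the interval, the longest stretch was 317 kb for the Antennapedia complex and 152 kb for the bithorax complex. Merging peaks closer than 500 bp gave a median width of 637 bp in the Antennapedia complex and 711 bp in the bithorax complex. For both together the median was then 660 bp, against 631 bp in the rest of 3R, the reverse of the order as deposited. The share of tiles with more peaks than the Antennapedia complex ran from 62.0% to 78.5% over its 9 alternatives. Alternatives for GAGAG in the Hox promoters were not run, since they need promoter sequences. No paired analysis was possible because the ChIP list has no second sample, and no sample could be left out.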
